A study of Mus musculus with 2 samples.

Results

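Xcr1 Clec9a conventional dendritic cells were picked out of single-cell RNA-Seq of GFP+ cells from denervated mouse hind limb muscle. A barcode was taken when it had at least 2000 unique molecular identifiers (UMIs), under 10% of them from mt- genes, at least 2 UMIs of Xcr1 and Clec9a together, and at most 5 of C1qa and C1qb together. This gave 297 cells of 18579 barcodes that passed the depth and mt- filter, or 1.60% (95% exact binomial interval, 1.42 to 1.79%), among 36400 barcodes deposited with 170648616 UMIs in all. The mice carried the S100GFPtg transgene, in which the S100B promoter drives GFP to mark Schwann cells, on a wild-type Sod1 background. The libraries were made from males and the series gives 2 months as their age, while the study's methods give an older range for nerve crush. The sciatic nerve had been crushed, and tibialis anterior and gastrocnemius muscles were taken 7 days later. Live GFP+ cells, which exclude propidium iodide, were sorted and made into 1 droplet library, and the GFP- library of the same muscles is not analysed here. Descriptions differ on whether 1 mouse or a pool was used, and nothing ties a barcode to an animal. With 1 library there is no replicate and no test between conditions, so every interval given covers counting error only.

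Type 1 conventional dendritic cells (cDC1) depend on the transcription factors Irf8, Batf3 and Id2 and on the growth factor Flt3 ligand. They are known for taking up dead cells through Clec9a, for loading the antigen onto MHC class I for CD8 T cells, and for meeting those T cells through Xcr1, the receptor for the chemokine Xcl1. Type 2 cells (cDC2) carry Sirpa, Mgl2 and Cd209a and rely on Irf4, while both types turn on Ccr7 and Fscn1 when they mature and leave for lymph nodes.

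The groups set beside the Xcr1 Clec9a cells came from the same library and filter, each with at most 1 UMI of Xcr1 and Clec9a together. They were 115 Cd209a Flt3 cells (at least 2 UMIs of Cd209a and 1 of Flt3), 19 Ccr7 Fscn1 cells (at least 2 UMIs of each) and 6102 C1q macrophages (at least 20 UMIs of C1qa and C1qb together). The Xcr1 Clec9a cells were deep, with a median of 15642 UMIs (2000 to 41555) and 3268 genes, against medians of 11782, 10735 and 10148 UMIs in the groups above and 4294 in all other barcodes that passed. At least 5000 UMIs were found in 245 of the 297 cells, and these made up 2.80% (2.47 to 3.17%) of all passing barcodes of that depth. Of 372 barcode sequences that the GFP+ and GFP- libraries shared, 10 belonged to Xcr1 Clec9a cells. Levels below are UMIs per 1000000 UMIs of the summed group (CPM), with 95% exact Poisson intervals, and shares of cells are given after thinning each barcode to 2000 UMIs unless stated.

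The cells were selected on the measured counts of Xcr1, Clec9a, C1qa and C1qb, so the levels of these genes describe the choice. The cells held 2 to 37 UMIs of the pair, with a median of 6. UMIs of both were found in 218 cells, of Xcr1 alone in 32 and of Clec9a alone in 47. Xcr1 (chromosome 9, 123852315 to 123862029 in GRCm38) stood at 229 CPM and Clec9a (chromosome 6, 129408862 to 129424764) at 216 CPM. The 297 cells held 69.8% of the Xcr1 UMIs and 67.4% of the Clec9a UMIs of all passing barcodes. C1qa and C1qb were both at 0 in 158 of the cells. In the 76 cells with exactly 2 UMIs of the pair, 30 listed cDC1 genes that the rule did not use summed to 4943 CPM, against 8337 CPM in the 221 cells with 3 or more. Just outside, 257 barcodes with 1 UMI of the pair summed to 2739.9 CPM, and 6784 barcodes with none to 1604 CPM. Barcodes kept out by C1qa and C1qb also held cDC1 genes, at 4487 CPM in 21 with 6 to 10 UMIs of C1q and 4117 CPM in 65 with more. The 17 barcodes of 1500 to below 2000 UMIs that met the rest of the rule stood at 5751 CPM, and 5 barcodes kept out by their mt- share at 6546 CPM.

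The cells were not uniform, and macrophage and fibroblast markers were higher in the shallow cells. The 52 cells of 2000 to below 5000 UMIs had 4953 CPM of the cDC1 genes, 8215 CPM of 16 macrophage markers and 8549 CPM of 10 fibroblast markers. The 245 deeper cells had 7987, 1958 and 1632 CPM of the same lists. Monocyte markers were at 542 and 494 CPM in the shallow and the deeper cells. Cells with 1 gene of the pair differed from cells with both. Cells with Clec9a alone had 5072 CPM of cDC1 genes against 6835 CPM in cells with Xcr1 alone and 8343 CPM in cells with both. The cells with Xcr1 alone were shallow, with a median of 3850 UMIs against 17648 in cells with both, and held 5186 against 1747 CPM of fibroblast markers and 3186 against 1709 CPM of macrophage markers. The cells with Clec9a alone held more macrophage RNA, at 5049 CPM and a median depth of 11702 UMIs. They also held 1207 CPM of 9 monocyte markers and 812 CPM of 11 plasmacytoid dendritic cell markers, against 399 and 245 CPM in cells with both. Over 100 UMIs per 10000 came from macrophage markers in 29 cells and from fibroblast markers in 26. The part of this RNA in the levels below was not tested, apart from the values given without such cells at the end.

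**Figure D1:**
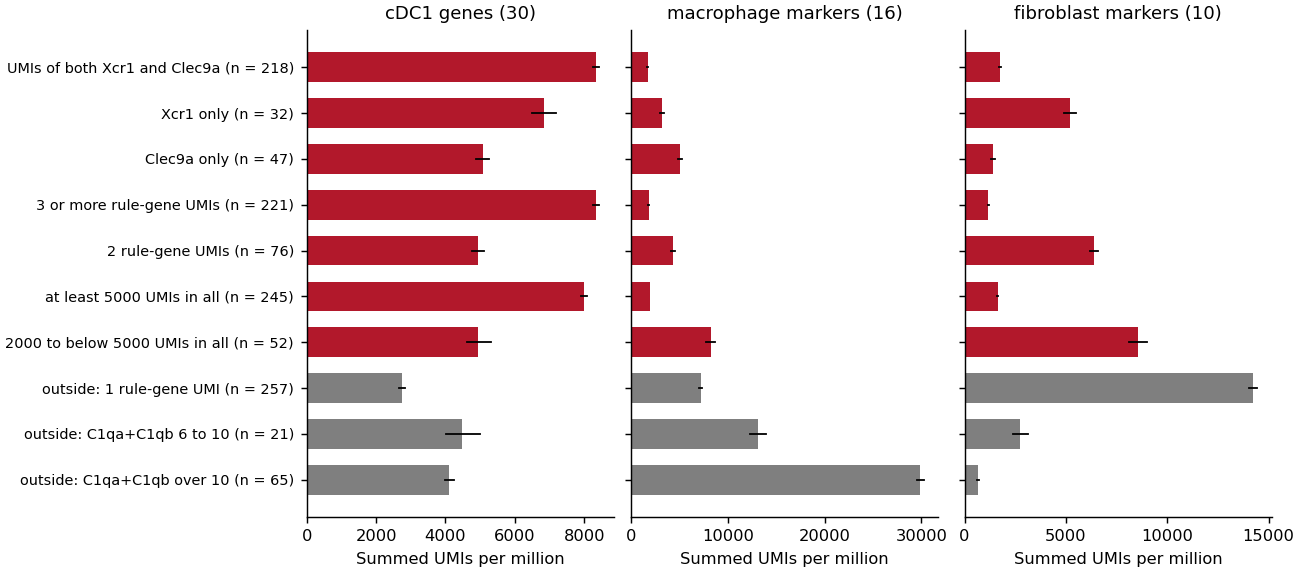
Summed CPM of 30 cDC1 genes, 16 macrophage markers and 10 fibroblast markers (x axes) in subsets of the 297 Xcr1 Clec9a cells (red) and in barcodes just outside the rule (grey), with 95% exact Poisson intervals (black lines). Cells with 3 or more UMIs of Xcr1 and Clec9a held 8337 CPM of the cDC1 genes and barcodes with 1 UMI held 2739.9. Cells of 2000 to below 5000 UMIs held 8215 CPM of macrophage markers and deeper cells 1958.

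Markers of cDC1 that the rule did not use were present. Htr7, a serotonin receptor, stood at 335 CPM (318 to 352) in the Xcr1 Clec9a cells, 82.2 CPM in Cd209a Flt3 cells and 2.21 CPM in C1q macrophages. Cd24a, a surface glycoprotein used to sort cDC1, stood at 296 CPM (281 to 312), 34.8 CPM and 4.55 CPM. Of the 30 listed cDC1 genes, the 297 cells had a median of 9 with a UMI and a range of 1 to 17. At least 5 were found in 257 cells (86.5%, 82.1 to 90.2%), against 3.48% of Cd209a Flt3 cells, 9.10% of C1q macrophages and 46.7% of barcodes with 1 UMI of Xcr1 and Clec9a. The 40 cells with fewer than 5 met the rule with little else of the list.

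**Figure D2:**
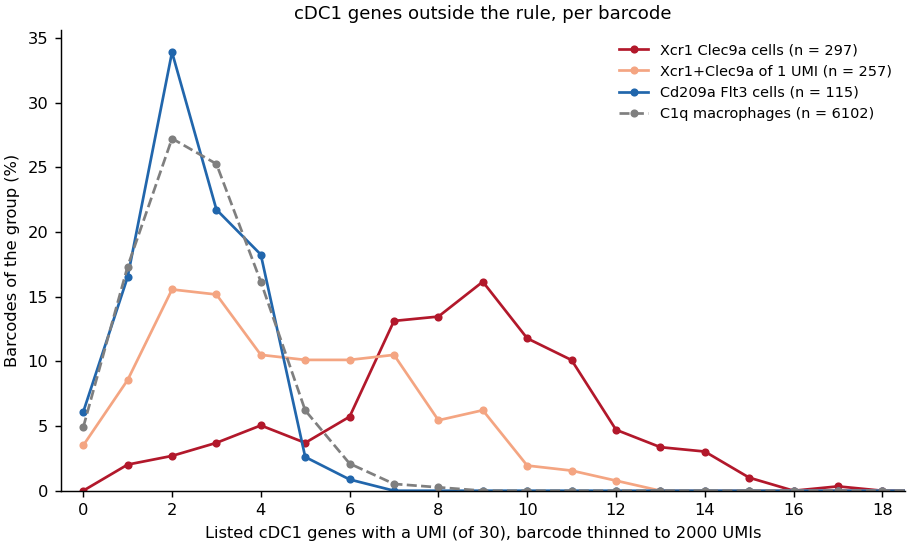
Share of barcodes (y axis, percent of each group) by the number of 30 listed cDC1 genes with a UMI after thinning to 2000 UMIs (x axis). The Xcr1 Clec9a cells (red) have a median of 9 genes, C1q macrophages (grey) of 3 and Cd209a Flt3 cells (blue) of 2, and barcodes with 1 UMI of Xcr1 and Clec9a (orange) spread over both ranges with a median of 4.

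Against Cd209a Flt3 cells, 21 of 23 cDC1 genes with a mean of at least 10 CPM were 2-fold or more higher and none was 2-fold lower, where 7.59% of all 7229 genes of that level were 2-fold higher and 9.71% 2-fold lower. The other 7 genes of the list had a lower mean. Of the 23, 7 (Cd36, Gcsam, Gpr141b, Itgae, Ly75, Plpp1 and Tlr3) were below 10 CPM in Cd209a Flt3 cells and passed this level through the Xcr1 Clec9a cells, so that their call was set in part by the filter. Of the 16 genes at 10 CPM or more in Cd209a Flt3 cells, 14 were 2-fold higher, where 4.36% of 7084 such genes were. The median log2 ratio of the 23 was 3.15, against -0.02 over all 7229. The list summed to 7879 CPM (7799 to 7960.4) against 1594 CPM, a log2 ratio of 2.31 (2.24 to 2.37). Naaa, a lysosomal amidase, was 6.69-fold higher at 829 CPM, and Ppt1, a lysosomal thioesterase, 8.89-fold higher at 470.4 CPM. Cadm1, an adhesion molecule, stood at 637 against 67.5 CPM and Ifi205, an interferon-inducible gene, at 819 against 66.1 CPM. Itgae, which encodes the CD103 integrin chain, had 493 UMIs in 142 Xcr1 Clec9a cells and none in Cd209a Flt3 cells, which makes it at least 50.9-fold higher with the 0 set to 3 UMIs over the group. Gpr141b, an orphan receptor, was likewise at 0 there and at least 44.2-fold higher. Ly75, the endocytic receptor DEC-205, was at 109 against 1.39 CPM, and it stood at 306 CPM in Ccr7 Fscn1 cells. The exceptions were Nfil3, a factor needed for cDC1 development, at a log2 ratio of -0.33 (-0.58 to -0.07), and Rab43, a trafficking GTPase linked to cross-presentation, at 0.74 (0.58 to 0.92). Ckb, a creatine kinase, lay at the threshold with 1.00 (0.88 to 1.13). Low members included Cd207, the lectin langerin, with 32 UMIs in 8 cells, 7 of which also had Itgae, and Tlr12 with 13 UMIs.

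Levels varied between single cells. Irf8 ran from 0 to 23.4 UMIs per 10000 with a median of 4.77 in the Xcr1 Clec9a cells, and its median in Cd209a Flt3 cells was 0. Wdfy4, which cDC1 need for cross-presentation, ran from 0 to 23.7 per 10000 with a median of 5.72, and Cadm1 from 0 to 65.4 with a median of 4.48. Both groups overlapped at 0 for each of these genes.

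**Figure D3:**
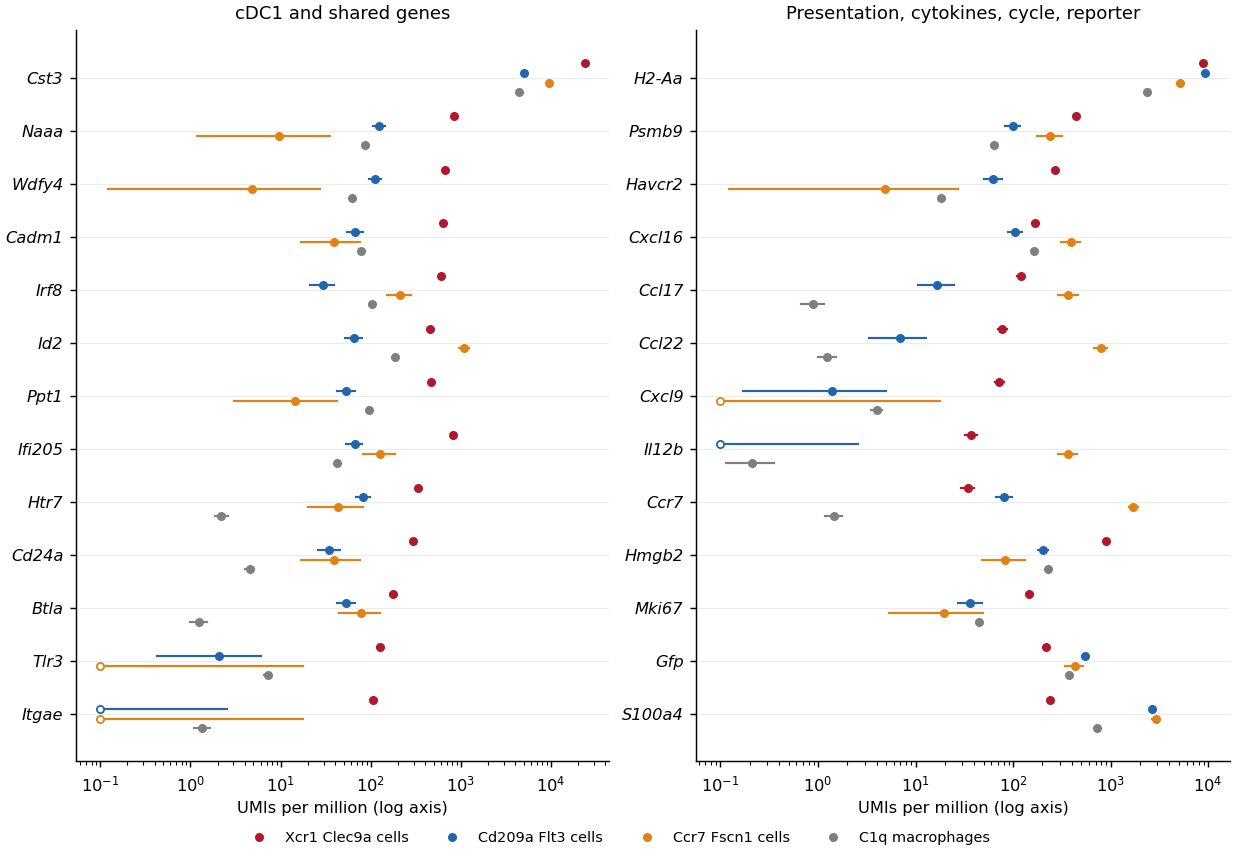
CPM (log x axes) of 26 genes (y axes) in Xcr1 Clec9a cells (red), Cd209a Flt3 cells (blue), Ccr7 Fscn1 cells (orange) and C1q macrophages (grey). Points are summed groups with 95% exact Poisson intervals, and open points are groups with no UMI, drawn at 0.1. Irf8 stands at 602 in the Xcr1 Clec9a cells and 29.2 in Cd209a Flt3 cells, while H2-Aa is close in both at 8827 and 9199. Ccr7 partly chose the Ccr7 Fscn1 cells.

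Of 18 listed dendritic cell factors tested against Cd209a Flt3 cells, 3 were 2-fold higher, 4 were 2-fold lower and 11 lay between (of all 7229 genes, 7.59% were higher and 9.71% lower), with a median log2 ratio of -0.19. Irf8 stood at 602 CPM (579.7 to 625), 20.6-fold above the 29.2 CPM of Cd209a Flt3 cells, and was also present at 209 CPM in Ccr7 Fscn1 cells and 102 CPM in macrophages. Id2, an inhibitor of E proteins, stood at 449.5 CPM and Batf3, an AP-1 factor, at 99.9 CPM, with log2 ratios of 2.80 (2.50 to 3.11) and 1.33 (0.93 to 1.76). Zeb2, a repressor tied to the cDC2 and monocyte lineages, was 15.6-fold lower at 76.8 against 1198 CPM, and 30.1% of its UMIs lay in 5 cells. Irf4 was at 5.39 against 62.7 CPM, and Cebpb and Tcf4 had log2 ratios of -2.04 and -2.11. The shared dendritic cell factor Zbtb46 did not separate the groups, at 93 and 80.8 CPM (log2 ratio 0.20, -0.10 to 0.51), and stood at 6.83 CPM in macrophages.

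Among growth factor and cytokine receptors, 1 of 13 was 2-fold higher and 4 were 2-fold lower than in Cd209a Flt3 cells, beside 7.59% and 9.71% of all genes, with a median log2 ratio of -0.42. Kit, the stem cell factor receptor, was the 1 higher gene at 85 against 21.6 CPM and 0.270 CPM in macrophages. Flt3, which helped to choose the Cd209a Flt3 cells, stood at 146 CPM and had a UMI in 227 of the 297 cells without thinning (144 of these also with Kit), a share of 76.4% at a median depth of 15642 UMIs against 4.13% of macrophages at 10148. The macrophage growth factor receptor Csf1r was at 15.5 CPM, against 67.5 in Cd209a Flt3 cells and 658 in macrophages. The GM-CSF receptor chain Csf2rb was close in both dendritic groups, at 169 and 171 CPM.

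The cDC2 markers were low. Without Cd209a, which chose the other group, 8 of 9 tested cDC2 markers were 2-fold or more lower in the Xcr1 Clec9a cells, as 9.71% of all genes were, and none was 2-fold higher, with a median log2 ratio of -3.01. Irf4 was below 10 CPM in the Xcr1 Clec9a cells and was tested through the Cd209a Flt3 cells, so that its call was set in part by the filter. The lower calls were not recounted with genes at 10 CPM in the Xcr1 Clec9a cells. Their summed level was 556 CPM against 2473 CPM, a log2 ratio of -2.15 (-2.23 to -2.08). Mgl2 and Clec10a, both galactose-type lectins, stood at 11.7 and 13.2 CPM against 389 and 459 CPM. Klf4, a factor of a cDC2 subset, was the 1 marker between the thresholds, at 289 against 329 CPM. The gates overlapped little, and 10 Xcr1 Clec9a cells also had at least 2 UMIs of Cd209a and 1 of Flt3. Those 10 held 2449 CPM of cDC1 genes and 2186 CPM of plasmacytoid dendritic cell markers, against 317 CPM of the latter in all 297.

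**Figure D4:**
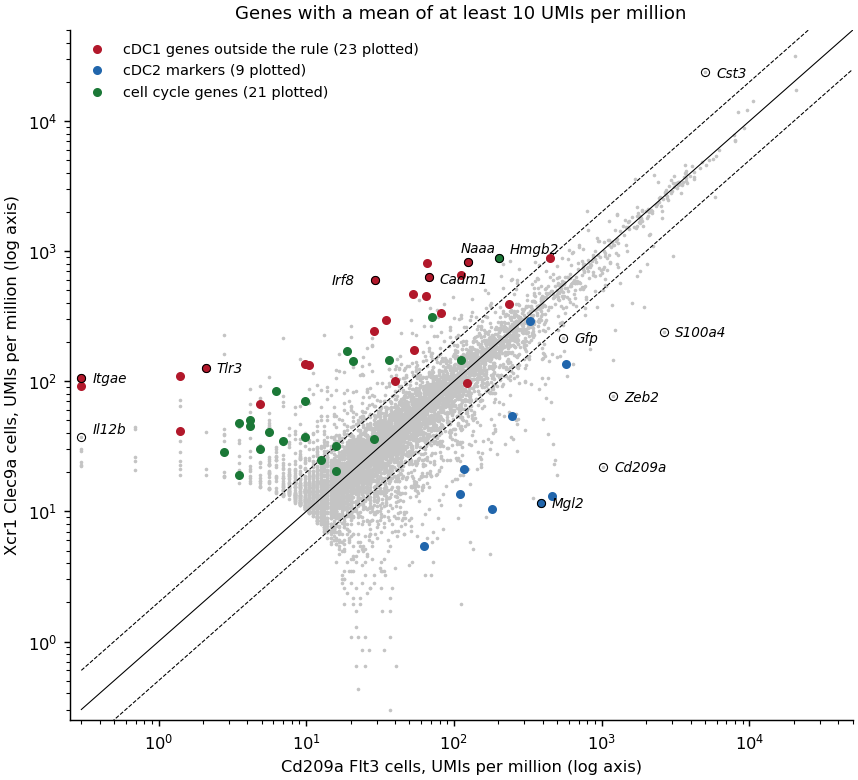
CPM (log axes) of genes with a mean of at least 10 in Cd209a Flt3 cells (x axis) and Xcr1 Clec9a cells (y axis). The solid line marks equal levels, the dashed lines 2-fold, genes with no UMI are drawn at 0.3, and named genes are circled. Of the cDC1 genes (red) 21 of 23 lie above the upper dashed line, of the cDC2 markers (blue, without Cd209a) 8 of 9 below the lower one, and of the cell cycle genes (green) 16 of 21 above.

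Among all tested genes, the 10 with the highest ratio to Cd209a Flt3 cells were Itgae, Gpr141b, Ly75, Gm36723, Tlr3, Cxcl9, Cxcr3, Fcrla, Sema4f and Kif4. Of these, Itgae, Gpr141b, Ly75, Tlr3, Cxcl9, Cxcr3 and Fcrla were below 10 CPM in Cd209a Flt3 cells. They were tested through their level in the Xcr1 Clec9a cells, so a high ratio was set in part by the filter. Cxcr3, the receptor for the chemokines Cxcl9 and Cxcl10, had 207 UMIs in 116 cells against 1 UMI in Cd209a Flt3 cells, which is 64.2-fold (log2 interval 3.51 to 11.31). Fcrla, an Fc receptor-like protein, had 297 against 2 UMIs. The 10 with the lowest ratio were Cd209a itself and Sirpb1a, Sirpb1b, Cyp7b1, Cd209c, Adgre4, Alox5, Nrg1, Il18rap and Clec10a. Likewise Sirpb1a, Sirpb1b, Cyp7b1, Alox5, Nrg1 and Il18rap were below 10 CPM in the Xcr1 Clec9a cells and were tested through the Cd209a Flt3 cells. Nrg1, which encodes the Schwann cell growth factor neuregulin 1, had 22 UMIs in 12 Xcr1 Clec9a cells against 251 UMIs in 16 Cd209a Flt3 cells, or 4.75 against 175 CPM. Alox5, the enzyme that opens leukotriene synthesis, had 4 against 48 UMIs.

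Set against all other passing barcodes, 8.32% of 8210 genes were 2-fold or more higher and 25.3% lower in the Xcr1 Clec9a cells. The 15 genes with the highest ratio, among those seen in at least 10% of the thinned cells, were Sept3, Gpr141b, 5730522E02Rik, Gm36723, Htr7, Hepacam2, Itgae, Btla, Kit, Gpr171, Ly75, P2ry10, Cd24a, H2-Ob and Fcrla. Several were shared with the Cd209a Flt3 cells. Btla, an inhibitory receptor of immune cells, was at 176 CPM here, 53.6 in Cd209a Flt3 cells and 1.23 in macrophages. P2ry10, a lysophospholipid receptor, was at 213, 173 and 1.25 CPM, and the orphan receptor Gpr171 at 131, 66.1 and 1.25 CPM. Sept3, a septin known from neurons, stood further apart at 134, 10.4 and 0.315 CPM, and was found in 18.2% of cells against 0.0983% of macrophages.

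Of 9 genes that dendritic cells share (without Flt3), 1 was 2-fold higher and 2 were 2-fold lower than in Cd209a Flt3 cells, beside 7.59% and 9.71% of all genes. All 9 were 2-fold higher than in macrophages, where 9.58% of all 7756 tested genes were 2-fold higher. Zbtb46 was below 10 CPM in macrophages and was tested through the Xcr1 Clec9a cells, so that its call was set in part by the filter. The count was not repeated with genes at 10 CPM in macrophages. The gene higher than in Cd209a Flt3 cells was Cst3, the protease inhibitor cystatin C, at 23695 CPM (23555 to 23836) in the Xcr1 Clec9a cells and 4.71-fold above their 5026 CPM. It was found in all 297 cells, from 4.73 to 742 UMIs per 10000 with a median of 213. In Cd209a Flt3 cells it ran from 11.1 to 168 per 10000 with a median of 43.8, so the groups overlapped.

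Of 13 genes of MHC class II presentation, 1 was 2-fold higher and 3 were lower than in Cd209a Flt3 cells, beside 7.59% and 9.71% of all genes, with a median log2 ratio of -0.14, and the summed levels were 43764 and 49968 CPM against 13255 CPM in macrophages. H2-Aa stood at 8827 and 9199 CPM and H2-Ab1 at 7835 and 7906 CPM. H2-Ob, a chain of the H2-O modulator of peptide loading, was the higher gene at 113 against 47.3 CPM. Ctss, the protease that trims the invariant chain, and Ifi30, a lysosomal thiol reductase, were 2.53-fold and 3.05-fold lower. The third lower gene was H2-DMb2 at 35.8 against 97.5 CPM.

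Of 20 listed genes of MHC class I and cross-presentation, 6 were 2-fold higher and 1 was lower than in Cd209a Flt3 cells (of all 7229 genes, 7.59% were higher and 9.71% lower), with a median log2 ratio of 0.16. The class I chains themselves were not higher, since H2-K1 and H2-D1 had log2 ratios of -0.48 and -0.57 and their partner B2m of -0.38. The 6 higher genes were Psmb8, Psmb9, Tap1, Tap2, Tapbpl and Wdfy4. The immunoproteasome subunit Psmb9 was 4.46-fold higher (441 against 98.9 CPM), Psmb8 2.07-fold and the peptide transporter chains Tap1 and Tap2 2.04-fold and 2.68-fold. Wdfy4 was 5.89-fold higher at 661 CPM, and Tapbpl, a tapasin relative, 3.19-fold on 72 UMIs. Tapbpl was below 10 CPM in Cd209a Flt3 cells and was tested through the Xcr1 Clec9a cells, so that its call was set in part by the filter. Cybb, the catalytic chain of the phagocyte NADPH oxidase, was 19.3-fold lower at 25 against 483 CPM. Sec22b, another trafficking gene of the list, was level at 25 and 26.5 CPM.

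Receptors that sense microbes and dead cells were unequal. Of 7 tested pattern recognition receptors 1 was 2-fold higher and 4 lower, beside 7.59% and 9.71% of all genes, with a median log2 ratio of -1.19, and the sum was 623 against 1989.96 CPM. The higher gene, Tlr3, was below 10 CPM in Cd209a Flt3 cells and was tested through the Xcr1 Clec9a cells, so that its call was set in part by the filter. Tlr3, the sensor of double-stranded RNA, stood at 127 CPM with UMIs in 196 cells, against 3 UMIs in all Cd209a Flt3 cells (log2 ratio 5.92, 4.37 to 8.21) and 7.23 CPM in macrophages. Tlr11, a profilin sensor, had 68 UMIs in 52 cells. Tlr2 and Cd14, which sense bacterial lipoproteins and lipopolysaccharide, were 5.86-fold and 4.98-fold lower. Of 5 tested receptors for dead cells, 3 were 2-fold higher, as 7.59% of all genes were, and none lower than in Cd209a Flt3 cells, with a median log2 ratio of 2.09. Cd36, 1 of the 3, was below 10 CPM in Cd209a Flt3 cells and was tested through the Xcr1 Clec9a cells. Havcr2, which encodes Tim-3, stood at 267 against 62.7 CPM, and Timd4, a phosphatidylserine receptor, at 94.3 against 11.8 CPM. The scavenger receptor Cd36 was at 136 against 9.75 CPM, below the 601 CPM of macrophages. Mertk and Stab1, which macrophages use for this task, were at 5.39 and 7.12 CPM against 166 and 364 CPM in macrophages.

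Few of the cells carried the maturation program. The pair Ccr7 and Fscn1 reached 2 UMIs each, without thinning, in 1 of 297 cells (0.337%, 0.00852 to 1.86%). Likewise without thinning, Ccr7, the receptor that guides cells to lymph nodes, had a UMI in 31 cells (10.4%) against 27% of Cd209a Flt3 cells and 0.688% of macrophages. Fscn1, an actin bundling protein, had one in 7 cells (2.36%), against 0.870% of Cd209a Flt3 cells, 2.69% of macrophages and 8.20% of all other passing barcodes. Of 14 tested maturation genes 2 were 2-fold higher than in Cd209a Flt3 cells and 4 lower (of all 7229 genes, 7.59% were higher and 9.71% lower), with a median log2 ratio of -0.74, and the 22 listed genes summed to 1697, 2209 and 13589 CPM in Xcr1 Clec9a, Cd209a Flt3 and Ccr7 Fscn1 cells. The 2 higher genes, Ccl22 and Il12b, were below 10 CPM in Cd209a Flt3 cells. They were tested through the Xcr1 Clec9a cells, so that their call was set in part by the filter. The costimulators Cd83 and Cd86 were at 636 and 468 CPM, against 593 and 649.6 in Cd209a Flt3 cells. The gate takes no account of mature cells that have lost Xcr1 and Clec9a, and the 19 Ccr7 Fscn1 cells had 209 CPM of Irf8 and 43.7 CPM of Htr7.

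Il12b, the p40 chain of interleukin 12, was held by a small set of cells. It had 172 UMIs in 14 of the 297 cells and none in Cd209a Flt3 cells, and 91.3% of its UMIs lay in 5 cells. It stood at 37.1 CPM in the Xcr1 Clec9a cells, 364 CPM in Ccr7 Fscn1 cells and 0.210 CPM in macrophages. Of those 14 cells, 8 had Ccr7, 8 had the chemokine Ccl22 and 8 had Cd40, against 8.13%, 14.1% and 15.5% of the other 283 cells, all without thinning. Their median depth was 19681 UMIs against 15499. The 22 maturation genes, Il12b and Ccl22 among them, summed to 5173 CPM in the 14 and 1502 CPM in the rest, while the cDC1 genes were at 8530.3 and 7843 CPM. Il12a, the other chain of interleukin 12, had 4 UMIs in all 297 cells.

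Chemokines were also uneven between cells. Of 16 tested cytokines and chemokines 5 were 2-fold higher than in Cd209a Flt3 cells and 7 lower, beside 7.59% and 9.71% of all genes, with a median log2 ratio of -0.75. Of the higher genes, Il12b, Cxcl9, Ccl22 and Il18 were below 10 CPM in Cd209a Flt3 cells. They passed the level filter through the Xcr1 Clec9a cells, so that their call was set in part by the filter. Cxcl9, which draws Cxcr3-bearing T cells, stood at 72.1 CPM with UMIs in 68 cells and 53.6% of UMIs in 5, against 2 UMIs in Cd209a Flt3 cells and 4.00 CPM in macrophages. The Ccr4 ligands Ccl17 and Ccl22 were at 120.2 and 77.3 CPM in 45 and 48 cells, 16 of which had both, against 16.7 and 6.96 CPM. Il18, a cytokine that acts with interleukin 12 on T cells, was 4.93-fold higher at 41.2 CPM. Il1b, an inflammatory cytokine, was 2.04-fold lower at 1095 CPM, and the macrophage chemokines Ccl3 and Ccl4 2.69-fold and 2.54-fold lower. Ifnb1 had no UMI, which makes it at least 20.4-fold lower than the 13.2 CPM of Cd209a Flt3 cells. Ccr2, a receptor of cells that enter from blood, was at 243 against 379 CPM.

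**Figure D5:**
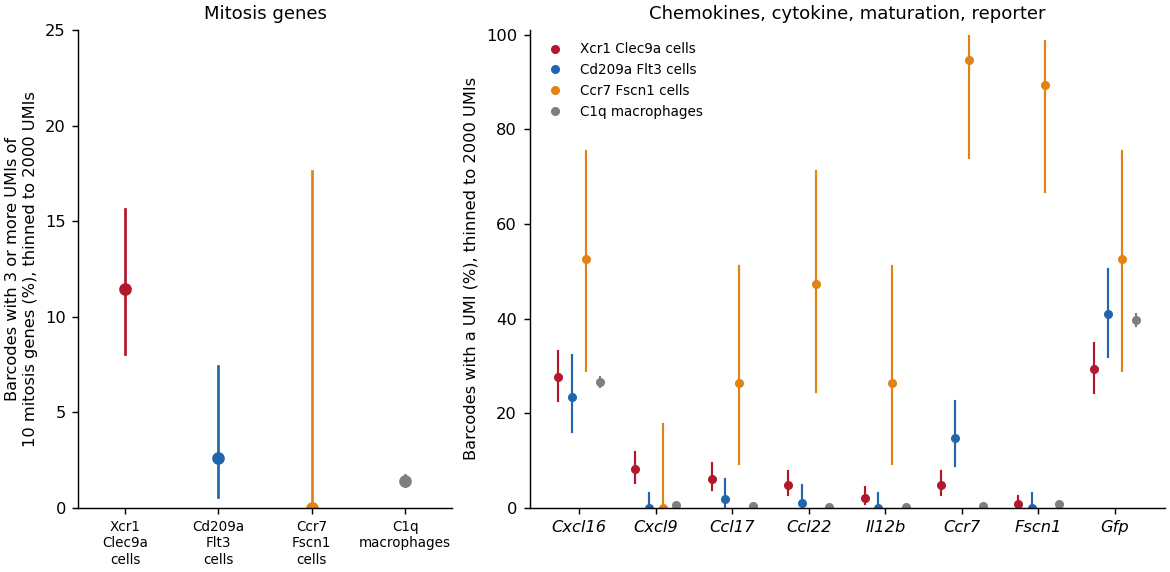
On the left, share of barcodes (y axis, percent) with 3 or more UMIs of 10 mitosis genes, and on the right, share with a UMI of each gene (x axis), all after thinning to 2000 UMIs, in the same groups and colours as the plot of levels, with 95% exact binomial intervals. The mitosis share is 11.4% in Xcr1 Clec9a cells and 1.39% in C1q macrophages, and Ccr7 and Fscn1, which chose the Ccr7 Fscn1 cells, are rare in the Xcr1 Clec9a cells at 4.71% and 0.673%.

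UMIs of mitosis genes were frequent among the Xcr1 Clec9a cells. At least 3 UMIs of 10 mitosis genes were found in 34 of 297 (11.4%, 8.06 to 15.6%), against 3 of 115 Cd209a Flt3 cells (2.61%, 0.541 to 7.43%), 0 of 19 Ccr7 Fscn1 cells (exact interval up to 17.6%), and 1.39% of macrophages. These intervals cover counting error over cells of 1 library after 1 random thinning, and no test between the groups was made. Without thinning the shares were 28.3%, 8.70%, 0 and 7.39%. Of 21 tested cell cycle genes 16 were 2-fold or more higher than in Cd209a Flt3 cells, as 7.59% of all genes were, and none lower, with a median log2 ratio of 2.45. Of the 21, 11 were below 10 CPM in Cd209a Flt3 cells and passed the level filter through the Xcr1 Clec9a cells, and of the other 10 genes 5 were 2-fold higher, where 4.36% of all genes at 10 CPM there were. Against macrophages 18 of 21 were 2-fold higher, as 9.58% of all genes were, with a median of 2.45, and the median over all tested genes was -0.12. The count against macrophages was not repeated with genes at 10 CPM there, so the part of the level filter in it was not tested. Top2a, the topoisomerase that untangles replicated DNA, stood at 172 against 18.8 CPM, and Mki67, the Ki-67 antigen, at 147 against 36.2 CPM. Hmgb2, a chromatin protein, was at 894 against 203 CPM. Replication genes varied. Pclaf, Rrm2 and Tyms were among the 16 higher genes, while log2 ratios were 0.33 (-0.17 to 0.86) for Mcm3, 0.34 (-0.33 to 1.07) for Mcm5 and 0.37 (0.12 to 0.63) for Pcna. At least 3 UMIs of 9 S phase genes were found in 9.09% of the Xcr1 Clec9a cells (6.08 to 13%) against 3.48% of Cd209a Flt3 cells (0.956 to 8.67%), and these intervals overlap. The cDC1 genes were a little lower in the cells with at least 3 mitosis UMIs, since the 34 held 7520.5 CPM of cDC1 genes (7332 to 7712) and the other 263 held 7955 CPM (7866 to 8045). Their median depth was 25246 UMIs against 15179, and they carried 248 CPM of fibroblast markers against 2221 CPM. The part of depth in the mitosis share beyond the thinning was not tested.

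The reporter transcript was lower than in the groups set beside these cells. Gfp had 1005 UMIs in the Xcr1 Clec9a cells, 217 CPM (204 to 231), against 551 CPM (514 to 591) in Cd209a Flt3 cells, 427 in Ccr7 Fscn1 cells, 371 in macrophages and 359.6 in all other passing barcodes. Its log2 ratio to Cd209a Flt3 cells was -1.35 (-1.48 to -1.21). It was found in 29.3% of thinned cells, against 40.9% of Cd209a Flt3 cells and 39.7% of macrophages, and in 210 of 297 without thinning, at up to 34 UMIs. A second GFP feature of the reference had no UMI in the 297 cells. S100b, whose promoter drives the reporter, had 4 UMIs in all 297 cells. Of 10 Schwann cell markers 2 were at 0, and the sum was 83.7 CPM, 77.7 of it from the myelin gene Mbp, which was at 46 CPM in Cd209a Flt3 cells and 22.1 CPM in macrophages. The calcium-binding genes S100a4 and S100a6 were 11.1-fold and 3.28-fold lower than in Cd209a Flt3 cells, while S100a11 was at 1468 CPM against 1231 CPM there and 257 CPM in macrophages.

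None of 9 immediate early genes passed 2-fold against Cd209a Flt3 cells, as most genes did not. Their sum was 3903 CPM against 4244 CPM there and 8923 CPM in macrophages. Interferon response genes, of which 3 of 6 tested passed 2-fold in 1 direction or the other beside 7.59% and 9.71% of all genes, summed to 302 against 358 CPM. Irf7, the 1 of 6 tested that was 2-fold higher, had 71.7% of its UMIs in 5 cells, and Isg15 and Rsad2 were 2-fold lower.

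Markers of other cell types were low in sum but not absent. The 16 macrophage markers other than C1qa and C1qb summed to 2179.8 CPM against 42700.5 CPM in C1q macrophages, a log2 ratio of -4.29 (-4.32 to -4.26), and all 16 were 2-fold or more lower, where 20.2% of genes were. Apoe, a lipid carrier that macrophages make in bulk, was at 297 CPM against 19766. T and NK cell markers had 6 UMIs in all, with 6 of 9 genes at 0. Markers of B cells, endothelium and smooth muscle with pericytes summed to 59.3, 53.3 and 5.18 CPM. Muscle, erythroid and neutrophil markers were concentrated, and 5 cells held 85.2%, 97.2% and 95.5% of their UMIs. In the 243 cells with at most 100 UMIs per 10000 of any other type's markers, chosen after these values were seen, fibroblast markers summed to 207 CPM in place of 1877 and the cDC1 genes to 8254 CPM. The median depth of those cells was 17167 UMIs against 3782 in the other 54.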

How the data were processed

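UMI counts of 32287 features by barcode were deposited as 1 matrix for the GFP+ library. The authors made these counts with Cell Ranger from 3' droplet libraries, with sequences for green fluorescent protein added to the reference, and deposited them without normalization and after cell calling. The file header names Cell Ranger 8.0.1 and the submitters' processing notes name Cell Ranger 7.1.0 and mm10, while the study names both GRCm38 and GRCm39. The matrix holds no coordinates, and the positions printed are those of RefSeq genes on GRCm38. The authors' removal of ambient RNA and doublets is not part of the deposited counts, so none was removed here. Scrublet (scanpy 1.11.5), taking the highest-scoring 0.4% for each 1000 of the 36400 barcodes, marked 5015 of 34441 barcodes with over 200 genes and under 10% mt- UMIs, of which 1 was an Xcr1 Clec9a cell, and their removal was an alternative.

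UMIs were summed over the cells of a group and divided by all UMIs of the group. CPM carry exact Poisson, shares exact binomial (Clopper-Pearson) and log2 ratios exact conditional 95% intervals (scipy 1.17.1, numpy 2.4.6). A ratio against a group with no UMI used 3 UMIs over the group as its floor. Cd209a Flt3 cells and Ccr7 Fscn1 cells also had at most 5 UMIs of C1qa and C1qb, and a barcode in both gates went to the latter. Genes counted as tested had a mean CPM of at least 10 over the groups compared, so a gene can pass through 1 group alone, and a count past 2-fold describes this library. The call of such a gene, higher or lower, is set in part by the filter. Counts with genes at 10 CPM in 1 group alone used the Cd209a Flt3 cells. They were made for all genes and for the cDC1 and cell cycle lists. Thinning drew 2000 UMIs per barcode without replacement and left out no cell. The steps were tested on simulated data.

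The cells, the gene lists and the alternatives were chosen with earlier results of these data known. Genes were named by a rule: the rule's genes with Htr7 and Cd24a, in each list up to 6 of the highest CPM and up to 4 with the largest ratio to Cd209a Flt3 cells, 15 with the highest ratio to all other barcodes, 10 at each end of the ratio to Cd209a Flt3 cells, and the leading gene of each marker list. Other genes of the lists that the text names, such as Batf3, Nfil3, Ppt1, Rab43, Tap1, Il18, Mcm3, Mertk, Mgl2 and Apoe, were chosen after their values were seen. Of 325 listed genes 324 were found in the matrix by symbol, and the other is not analysed here.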

Additional observations from a re-analysis of the deposited data

How the results depend on the processing

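No paired analysis was possible because all groups compared come from 1 library. Removing cells over 100 UMIs per 10000 of another type, cells that also met the Cd209a Flt3 gate and barcodes shared with the GFP- library were alternatives chosen after seeing the data. No ratio of 2-fold or more in the main setting changed direction, and smaller ratios were not checked for a change of sign. The Gfp ratio lay between -1.25 and -1.48, and the number of cells between 218 and 297. With at least 3 UMIs of Xcr1 and Clec9a, the log2 ratios of the cDC1, cDC2 and macrophage lists were 2.39, -2.24 and -4.53 and the cells' share of passing barcodes was 1.19%. With a UMI of each gene they were 2.39, -2.23 and -4.64 with 1.17%. As a mean of per-cell CPM the ratios were 2.21, -1.96 and -3.68, and without cells rich in another type's RNA 2.37, -2.27 and -4.71 with a share of 1.31%. The macrophage ratio was -4.45 with at least 5000 UMIs, -4.26 with mt- genes under 5% and -4.44 with at most 1 UMI of C1q. The share was 2.80%, 1.96% and 1.27% in these and 1.81% after Scrublet. The share of Xcr1 Clec9a cells with at least 2 UMIs each of Ccr7 and Fscn1 was 0 under each of 4 settings. These were at least 5000 UMIs, at least 3 UMIs of Xcr1 and Clec9a, a UMI of each of these 2 genes, and at most 1 UMI of C1q. The mitosis share was 28.3% without thinning and 5.72% at 1000 UMIs. With all genes seen in both groups, 3848 passed 2-fold against Cd209a Flt3 cells (1503 higher and 2345 lower, in place of 549 and 702) and 7468 against all other barcodes (1943 and 5525, in place of 683 and 2074). With genes of at least 10 CPM in Cd209a Flt3 cells alone, also chosen after seeing the data, 1171 passed (309 higher and 862 lower). Fewer counts per gene stand behind the genes added without a filter. Of 76 named genes with a ratio to Cd209a Flt3 cells, 16 left their own interval under the stricter rule of 3 UMIs, 16 without cells rich in another type's RNA, 5 with at least 5000 UMIs and none after Scrublet. As a mean of per-cell CPM, 27 of 73 did. The Ccr7 Fscn1 cells are 19, so their intervals are wide.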
